A study of Homo sapiens with 6 samples.

Results

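The non-clustered protocadherins are 10 genes, PCDH1, PCDH7, PCDH8, PCDH9, PCDH10, PCDH12, PCDH17, PCDH18, PCDH19 and PCDH20, taken by gene symbol from the 60483 gene rows of an RNA-seq count table. All 10 were found. The study profiled 2 lines, HAP1 and HELLS KO, with 3 libraries of each, made from total RNA of cells grown without treatment. HAP1 is a near-haploid human line that derives from a chronic myelogenous leukemia and grows attached. The HELLS KO line is an edited HAP1 derivative from a commercial supplier and carries an insertion of 1 base in exon 3 of HELLS, a chromatin remodeler of the SNF2 family that is known, in other systems, for a part in DNA methylation. It was compared with a single parental line, so the loss of HELLS and other differences between the lines cannot be told apart. The methods call the replicates biological without saying whether they were separate cultures, and the p-values measure the spread between these libraries only. The comparison asked which of these adhesion genes differed in RNA level between the lines.

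Protocadherins are cadherin-type adhesion receptors. The clustered genes lie side by side in arrays on chromosome 5 and are chosen from alternative promoters. Each non-clustered gene, by contrast, lies outside these arrays and has its own promoter, although PCDH1 and PCDH12 lie near each other on chromosome 5. Most of the non-clustered proteins fall into the delta-1 and delta-2 subfamilies, which differ in the length of the extracellular domain and in the motifs of the cytoplasmic tail, and they are best known for sorting and wiring neurons in the developing brain. Of the 10 genes, PCDH1, PCDH7 and PCDH9 belong to delta-1 and PCDH8, PCDH10, PCDH17, PCDH18 and PCDH19 to delta-2, while PCDH12, an endothelial gene, and PCDH20 lie outside both. On the genome, 4 of the 10 genes lie on chromosome 13, 3 on chromosome 4, 2 on chromosome 5 and PCDH19 on chromosome X.

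The total counts were 13641237 to 24126357 in HAP1 and 14115255 to 24400187 in HELLS KO, with replicate 3 the deepest of each line. Replicate 3 carries a batch label of its own in both lines. Where a library had 0 counts of a gene, up to 3 counts remain possible, which covers counting error only. That limit is 0.123 to 0.220 CPM (counts scaled to the size of the library). It was scaled by the total counts, whereas the CPM of genes below use library sizes adjusted by TMM. HELLS itself was counted 1444, 1488 and 3671 times in HAP1 replicates 1 to 3 and 1410, 1375 and 2802 times in the HELLS KO replicates, a log2 fold change of -0.24 (SE 0.18, edgeR adjusted p = 1.0, n = 3). The ranges of HELLS in the lines overlapped, so its RNA level was only a weak check of the labels. SPI1, a defining transcription factor of myeloid cells, had 0 counts in every library, although the line derives from a leukemia.

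In HAP1, PCDH18 and PCDH1 stood well above the other members in FPKM. Levels of different genes are given as FPKM, which corrects for the length of the gene. PCDH18 had a mean level of 16.5 ± 4.50 FPKM (SD, n = 3) and PCDH1 of 12.2 ± 1.63 FPKM, against a median of 7.39 FPKM over the 17925 genes tested. Only these 2 genes exceeded that median. PCDH9 followed at 1.90 ± 0.997 FPKM, PCDH17 at 1.49 ± 0.408 FPKM and PCDH7 at 0.854 ± 0.261 FPKM. The ranges of PCDH9 and PCDH17 overlapped, as did those of PCDH17 and PCDH7, so these neighbours were not separated by the spread, while every PCDH9 library lay above every PCDH7 library. PCDH19 at 0.501 ± 0.105 FPKM, PCDH12 at 0.366 ± 0.0780 FPKM and PCDH8 at 0.231 ± 0.1003 FPKM formed a lower group, in which each range overlapped that of the next gene. PCDH10 and PCDH20 were close to undetected, with 2 to 16 counts and 2 to 7 counts in the HAP1 libraries. The gap between PCDH9 and the top 2 genes depends on the gene length behind the FPKM, which was 30944 bases for PCDH9. It was 5903 bases for PCDH1 and 6686 for PCDH18. By CPM, which is not corrected for length, PCDH9 had a mean of 59.9 in HAP1 and PCDH1 of 73.1, with ranges that overlapped. In HELLS KO these means were 72.4 and 69.4 CPM.

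In HELLS KO, the order of the levels was the same at the top, with PCDH18 at 13.7 ± 3.28 FPKM and PCDH1 at 11.5 ± 1.27 FPKM. Here their ranges overlapped. PCDH7 stood at 0.201 ± 0.113 FPKM and came after PCDH19 at 0.589 ± 0.229 FPKM and PCDH12 at 0.410 ± 0.0235 FPKM, both of which it exceeded in HAP1. The range of PCDH7 lay below that of PCDH12, where in HAP1 it lay above, and overlapped that of PCDH8 at 0.142 ± 0.0277 FPKM.

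The promoters of 3 members are shown because their RNA levels represent the 3 patterns found, namely a separation between the lines (PCDH7), a difference between replicates with ranges of the lines that overlapped (PCDH17) and a high level in both lines (PCDH18). Each sequence holds the 250 bases before the RefSeq start site in GRCh38.p14, 5′ to 3′ on the strand of the gene, with each CG dinucleotide, the site of DNA methylation, in capitals. The PCDH7 sequence is chr4:30720119-30720368 on the + strand, that of PCDH17 is chr13:57631494-57631743 on the + strand and that of PCDH18 is chr4:137532495-137532744 on the - strand.
PCDH7: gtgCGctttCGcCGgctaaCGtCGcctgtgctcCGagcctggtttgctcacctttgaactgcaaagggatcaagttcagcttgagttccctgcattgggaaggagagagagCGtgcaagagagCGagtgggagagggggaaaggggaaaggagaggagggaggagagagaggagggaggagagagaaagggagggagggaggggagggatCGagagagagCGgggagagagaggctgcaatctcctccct
PCDH17: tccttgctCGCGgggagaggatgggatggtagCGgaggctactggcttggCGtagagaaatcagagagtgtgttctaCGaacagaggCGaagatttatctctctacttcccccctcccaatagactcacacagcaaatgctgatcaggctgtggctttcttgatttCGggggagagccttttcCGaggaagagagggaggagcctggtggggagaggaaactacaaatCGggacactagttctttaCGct
PCDH18: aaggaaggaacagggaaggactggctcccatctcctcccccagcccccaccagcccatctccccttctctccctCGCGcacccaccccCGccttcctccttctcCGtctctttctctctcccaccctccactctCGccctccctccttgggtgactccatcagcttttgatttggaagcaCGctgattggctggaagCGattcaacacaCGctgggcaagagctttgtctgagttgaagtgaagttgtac

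In the RefSeq windows of 300 bases, which run from 250 bases before to 50 bases after the start, the 8 matched members held 5 to 26 CG dinucleotides, against a median of 14 over 35116 promoters. PCDH19 had 26, PCDH8 and PCDH9 20 each, PCDH7 16, PCDH17 11, PCDH18 10, PCDH1 6 and PCDH12 5. PCDH10 and PCDH20 were not matched. The highest members in FPKM, PCDH18 and PCDH1, were both under the median of 14. PCDH7, with 16, lay between PCDH17 and PCDH9, whose RNA ranges overlapped between the lines. The GC content of the 8 windows was 52.7% to 71.0%, against a median of 58.7%. Among short motifs read on both strands, TATAAA occurred in 1 of the 8 windows, PCDH8, and in 11.5% of all promoters. GGGCGG occurred in 4 of 8, PCDH1, PCDH8, PCDH9 and PCDH19, and in 44.95% of all. CGCT occurred in 7 of 8, all but PCDH8, and in 70.0% of all. These motifs can share bases, and each count only describes the letters in the window. The RefSeq starts of PCDH1, PCDH9 and PCDH12 lie inside the gene spans used for the counts here, which begin farther upstream. Methylation was not measured in these libraries.

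In edgeR, 0 of the 8 members with enough counts to be tested passed the threshold, an adjusted p under 0.05 and a log2 fold change of at least 1 in size, in either direction. Over all genes, 2.22% passed it, 1.5% higher and 0.72% lower in HELLS KO. One member, PCDH7, had an unadjusted p under 0.05, against 6.59% of all genes. The median log2 fold change of the 8 members was -0.12 and that of all tested genes 0.01. With the replicate number as a block, 1 of the 8, PCDH7, was lower, against 1.49% of all genes, and 0 were higher, against 2.03% (3.51% in both directions). DESeq2 called the same 1 member lower, against 0.908% of genes, and 0 higher, against 1.58% (2.49% in both directions). Values below are given as counts or CPM for single libraries, and as log2 fold changes of HELLS KO over HAP1 for differences. Where RNA of a gene was lower in bulk samples, fewer cells that express it and less RNA per cell cannot be told apart.

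**Figure D1:**
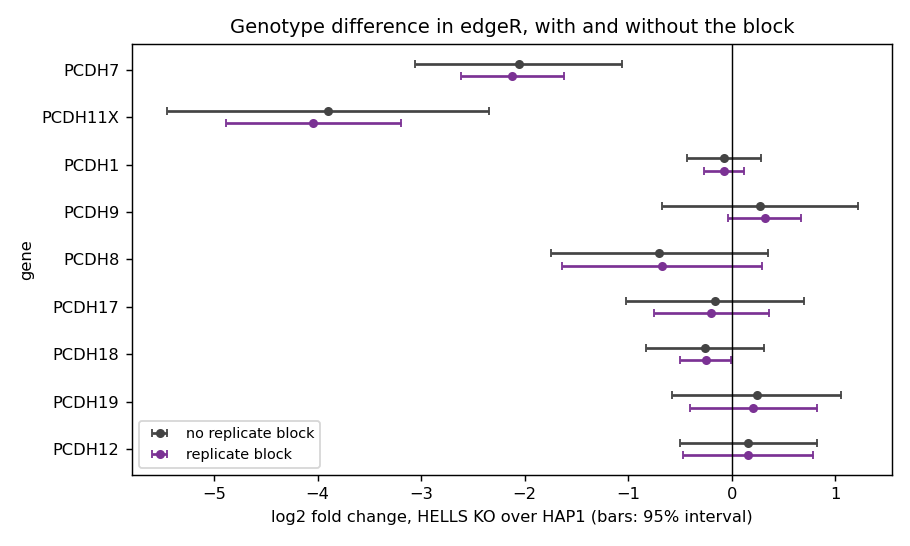
Log2 fold change of HELLS KO over HAP1 for the 8 tested members and PCDH11X, from edgeR without (grey) and with (purple) the replicate block; points are estimates, and bars the 95% interval. The intervals of PCDH7 and PCDH11X lie below 0 in both fits, whereas those of the other 7 members include 0 without the block, and that of PCDH18 excludes 0 with it.

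PCDH7 (ENSG00000169851, chr4:30720369-31146805, + strand) encodes a delta-1 protocadherin also known as NF-protocadherin, which acts in neural fold and axon development and binds the histone chaperone SET. It had 135, 110 and 345 counts in HAP1 replicates 1 to 3 and 25, 24 and 100 counts in the HELLS KO replicates. These correspond to 9.49, 8.0 and 14.4 CPM in HAP1 and to 1.72, 1.68 and 4.11 CPM in HELLS KO. Every HAP1 library was above every HELLS KO library, and replicate 3 was the highest of each line. Such a lack of overlap with lower values in HELLS KO held for 5.09% of all tested genes, and 10.1% did not overlap in one direction or the other. The mean level was 10.6 ± 3.34 CPM in HAP1 and 2.50 ± 1.39 CPM in HELLS KO (SD, n = 3).

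The difference of PCDH7 corresponded to a log2 fold change of -2.06 (SE 0.43, 95% interval -3.06 to -1.06), a level 4.17-fold lower in HELLS KO with an interval from 2.09-fold to 8.31-fold. Its unadjusted p was 0.00163 and its adjusted p 0.066 in edgeR, so it missed the threshold. Within replicate numbers, whose pairing was not established for replicates 1 and 2, the log2 ratio was -2.47, -2.25 and -1.81. The direction was the same in 3 of 3 pairs, and replicate 3, the deepest pair, had the smallest difference. With the replicate block, PCDH7 fell by 2.12 on the log2 scale (SE 0.22, edgeR adjusted p = 7.7e-04), which is 4.34-fold with an interval from 3.08-fold to 6.12-fold. Replicates 1 and 2 alone, without the library pair of the other batch, gave -2.38 (edgeR adjusted p = 0.0100). The call therefore depended on the fit, while the direction was the same in each of these.

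**Figure D2:**
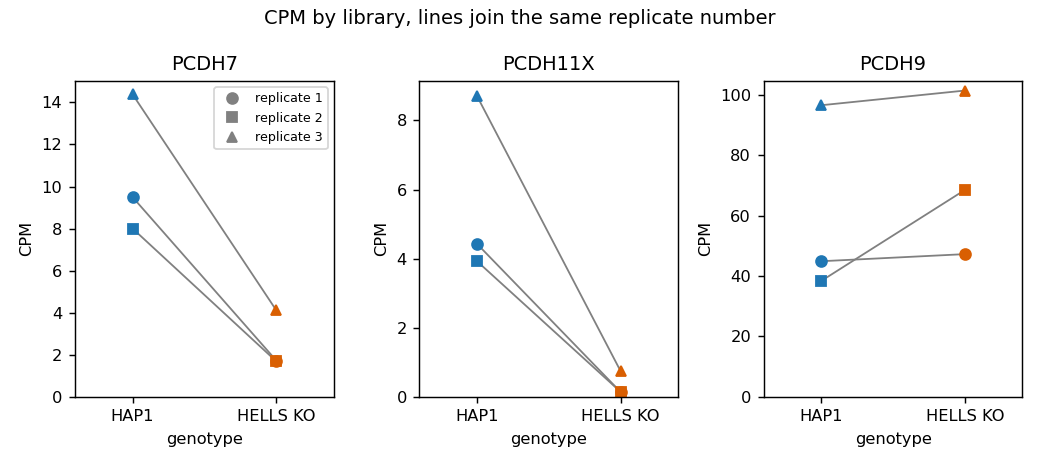
CPM of PCDH7, PCDH11X and PCDH9 in each library on linear axes from 0, with lines that join the HAP1 and HELLS KO libraries of the same replicate number. The 3 lines of PCDH7 and of PCDH11X all descend, whereas those of PCDH9 slope upward by different amounts from unequal starting points.

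PCDH1 (ENSG00000156453, chr5:141853090-141879246, - strand), a delta-1 member found at the contacts of airway epithelial cells, had 80.2, 76.5 and 62.7 CPM in HAP1 and 74.8, 73.1 and 60.3 CPM in HELLS KO. The ranges overlapped, with replicate 3 the lowest in both lines. Within replicate numbers the log2 ratio of PCDH1 was -0.10, -0.06 and -0.06, lower in HELLS KO in 3 of 3 pairs. Its log2 fold change was -0.07 (SE 0.15, 95% interval -0.43 to 0.28, edgeR adjusted p = 1.0), the narrowest interval of the 8 tested members. PCDH9 (ENSG00000184226, chr13:66302834-67230445, - strand), a delta-1 member of the developing cortex, had 44.9, 38.3 and 96.5 CPM in HAP1 and 47.2, 68.5 and 101.4 CPM in HELLS KO. Replicate 3 was the highest of each line, and the ranges of the lines overlapped. The log2 fold change of PCDH9 was 0.27 (SE 0.40, interval -0.68 to 1.22, edgeR adjusted p = 1.0). Within replicate numbers the log2 ratio was 0.07, 0.84 and 0.07, higher in HELLS KO in 3 of 3 pairs. With single libraries left out, the estimate ran from -0.062 without HELLS KO replicate 3 to 0.801 without HAP1 replicate 3.

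Among the delta-2 members, PCDH18 (ENSG00000189184, chr4:137518918-137532494, - strand), which binds the adaptor DAB1, had 95.4, 92.2 and 148.2 CPM in HAP1 and 70.7, 95.2 and 114.8 CPM in HELLS KO. The ranges overlapped, with replicate 3 the highest in both lines. Its log2 fold change was -0.26 (SE 0.24, interval -0.83 to 0.31, edgeR adjusted p = 1.0). With the replicate block it was -0.25 (interval -0.50 to -0.01, unadjusted p = 0.042, edgeR adjusted p = 0.39). PCDH17 (ENSG00000118946, chr13:57631744-57729311, + strand), known for axon extension and synapses, had 13.4, 8.80 and 15.7 CPM in HAP1 and 6.67, 10.5 and 16.6 CPM in HELLS KO. The lowest and the highest of these 6 libraries were both HELLS KO. Its log2 fold change was -0.16 (SE 0.37, interval -1.02 to 0.70, edgeR adjusted p = 1.0).

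PCDH19 (ENSG00000165194, chrX:100291644-100410273, - strand), the gene of an X-linked epilepsy, had 74, 52 and 141 counts in HAP1 and 51, 86 and 195 counts in HELLS KO. Its ranges overlapped, and the log2 fold change was 0.24 (SE 0.35, interval -0.57 to 1.05, edgeR adjusted p = 1.0). PCDH8 (ENSG00000136099, chr13:52842889-52848641, - strand), whose protein is induced by neuronal activity and takes N-cadherin (CDH2) into the cell, had 25, 10 and 27 counts in HAP1 and 12, 12 and 14 counts in HELLS KO. HAP1 replicate 2 lay below all HELLS KO libraries in CPM except replicate 3. The log2 fold change of PCDH8 was -0.70 (SE 0.45, edgeR adjusted p = 1.0). Its interval, -1.74 to 0.34, was the widest among the tested members that were not separated. PCDH10 (ENSG00000138650, chr4:133149294-133208606, + strand), a gene of the forebrain and olfactory circuits, had 2, 6 and 16 counts in HAP1 and 2, 0 and 10 counts in HELLS KO. It did not pass the filter on low counts. Without the filter its log2 fold change was -1.06 (SE 0.94, edgeR adjusted p = 1.0).

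PCDH12 (ENSG00000113555, chr5:141943581-141969741, - strand), also known as VE-cadherin-2, had 33, 29 and 76 counts in HAP1 and 44, 40 and 66 counts in HELLS KO. Its ranges overlapped in CPM, and its log2 fold change was 0.16 (SE 0.28, interval -0.51 to 0.82, edgeR adjusted p = 1.0). The gene overlaps RNF14 on the other strand, which had 4735 counts over the HAP1 and 4556 over the HELLS KO libraries. The strand setting of the counting was not given in the sources used here, so the reads of PCDH12 are uncertain. PCDH20 (ENSG00000280165, chr13:61409685-61415849, - strand) had 2, 2 and 7 counts in HAP1 and 7, 6 and 17 counts in HELLS KO. It overlaps ENSG00000197991 on the same strand, a protein-coding gene with 0 counts in every library. How reads that fall in both genes were counted was not given, so the reads of PCDH20 are uncertain as well. In CPM these counts of PCDH20 were 0.141, 0.145 and 0.292 against 0.481, 0.420 and 0.698, so the lines did not overlap, with higher values in HELLS KO. Such a separation held for 4.99% of all tested genes, but PCDH20 was not among them. The share over genes with so few counts was not calculated. PCDH20 did not pass the filter on low counts, and without the filter its log2 fold change was 1.39 (SE 0.75, unadjusted p = 0.080, edgeR adjusted p = 1.0).

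For 6 of the 8 tested members, all but PCDH7 and PCDH8, the estimated difference of replicate 3 from the other replicates was larger in size than that between lines; the size of the one against the other was not tested. In a fit with a term for line and one for replicate 3 against replicates 1 and 2, 4 of the 8 tested members were higher in replicate 3 and 1 was lower at an edgeR adjusted p under 0.05, against 23.6% and 25.5% of all tested genes (49.1% in both directions). The higher ones were PCDH9 (log2 difference 1.01, edgeR adjusted p = 0.0024), PCDH7 (0.94, adjusted p = 0.0063), PCDH17 (0.73, adjusted p = 0.032) and PCDH18 (0.57, adjusted p = 0.0059). PCDH1 was lower by this measure (-0.31, adjusted p = 0.0089). PCDH19 at 0.57, PCDH12 at 0.21 and PCDH8 at -0.31 did not pass. The median of the 8 members was 0.57 and that of all tested genes 0.03.

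In counts, HAP1 replicate 3 held 3.97 times the mean PCDH9 count of replicates 1 and 2, and in HELLS KO 2.96 times, while the total counts were 1.73 and 1.68 times as high. For PCDH7 these ratios were 2.82 and 4.08. Both genes therefore gained more than the depth in replicate 3 of each line. The batch label, the depth and the replicate number coincide in replicate 3, and they cannot be told apart.

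The genes around the members were read to set each member beside its surroundings. The nearest tested gene on each side of the 10 members gave 20 flanking genes, with a median log2 fold change of 0.03. Against 2.22% of all tested genes, 1 of the 20 passed the threshold. This was LINC02506 (ENSG00000251129, chr4:31997376-32228543, + strand), a long non-coding RNA gene that begins 851 kb past the end of PCDH7. It had 0 counts in all 3 HAP1 libraries and 12, 25 and 67 counts in HELLS KO. Against 3 counts over the HAP1 group, it was at least 33.8-fold higher in HELLS KO (edgeR adjusted p = 0.033). The call was lost without any 1 of the libraries other than HAP1 replicate 3, with adjusted p up to 0.16. The gene on the other side of PCDH7, STIM2, lies 3695 kb away and had a log2 fold change of 0.27 (edgeR adjusted p = 1.0).

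TNMD, which encodes a tendon glycoprotein and lies 175 kb from PCDH19, had 192, 197 and 468 counts in HAP1 and 457, 407 and 820 counts in HELLS KO. The lines did not overlap in CPM, and the log2 fold change was 0.98 (SE 0.19, edgeR adjusted p = 0.053), just short of both parts of the threshold. TNMD passed the threshold without HAP1 replicate 3 (1.16, edgeR adjusted p = 0.018) and with replicates 1 and 2 only (1.09, adjusted p = 0.017). With the replicate block it was at 0.99 (edgeR adjusted p = 0.0036). Without any 1 of the other libraries it missed the threshold, with edgeR adjusted p from 0.17 to 0.24. LINC00458, the nearest tested gene on one side of PCDH8, also did not overlap, with a log2 fold change of -0.66 (edgeR adjusted p = 0.90). The other flanking genes, ARAP3, ENSG00000226040, SUGT1, HNRNPA3P5, DACH1, ENSG00000251488, PABPC4L, DELE1, GNPDA1, RPL13AP25, DIAPH3, EEF1A1P35, SLC7A11-AS1, RPSAP8, TDRD3 and LINC00355, overlapped between the lines, with log2 fold changes from -0.26 for ARAP3 to 0.48 for ENSG00000251488. A further 12 annotated genes overlap a member or start within 1 kb of one, and 9 of them had at most 3 counts in every library. These include all 5 inside PCDH9 and both inside PCDH7. ENSG00000271871, which overlaps PCDH12, had 34 and 56 counts over the HAP1 and HELLS KO libraries (log2 fold change 0.74, edgeR adjusted p = 1.0). PCDH10-DT, which starts 0.147 kb from PCDH10, had 4 counts over the HAP1 and 14 over the HELLS KO libraries.

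Genes whose proteins work with the non-clustered protocadherins were read next. Of 18 listed genes, 17 were tested, and 0 passed the threshold in edgeR, against 2.22% of all genes. An unadjusted edgeR p under 0.05 was found for 0, against 6.59%, and DESeq2 called 0, against 2.49%. The list holds the WAVE actin-regulatory complex that delta-2 tails recruit, with NCKAP1, CYFIP1 and WASF1, the PCDH7 binding partners PPP1CA and SET, and ADAM10, a protease that sheds cadherins. Their log2 fold changes ran from -0.10 for CDH2, the neuronal cadherin, to 0.11 for SMAD3, with a median of 0.02. DAB1, the adaptor bound by PCDH18, had 0 counts in every library.

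Among 19 other long cadherins, 15 were tested, and 1 passed the threshold, with 0 higher and 1 lower. Over all tested genes, 1.5% were called higher and 0.72% lower. The lower gene was PCDH11X (ENSG00000102290, chrX:91779261-92623230, + strand), the fourth delta-1 gene. It had 63, 54 and 209 counts in HAP1 and 2, 2 and 18 counts in HELLS KO. Like PCDH7, it was high in every HAP1 library, low in every HELLS KO library and highest in replicate 3 of each line. PCDH11X fell by 3.90 on the log2 scale (SE 0.66, edgeR adjusted p = 0.027), and its call was lost without HAP1 replicate 1 (adjusted p = 0.063), HELLS KO replicate 1 (0.11) or HELLS KO replicate 2 (0.14). With single libraries left out, the estimate ran from -5.30 without HELLS KO replicate 3 to -3.43 on the log2 scale. A near-identical copy of PCDH11X lies on the Y chromosome, so the assignment of its reads is uncertain.

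DCHS2, a large cadherin of the Dachsous type, was the other tested gene of that list whose lines did not overlap. A lack of overlap with lower values in HELLS KO held for 5.09% of all tested genes. The counts of DCHS2 were 174, 144 and 269 in HAP1 against 72, 113 and 143 in HELLS KO, and the estimate was -0.86 on the log2 scale (SE 0.23, edgeR adjusted p = 0.21). The FAT, CELSR and calsyntenin genes that were tested stayed between -0.16 and 0.10.

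Across the 6 libraries, the 2 genes with the log2 CPM pattern most like that of PCDH7 were TOX, a nuclear DNA-binding protein gene (Pearson r = 0.997), and PCDH11X (r = 0.996). These 2 were picked after the values of PCDH7 were seen, and the 6 points share the 2 lines and the higher values of replicate 3.

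The clustered protocadherins, the arrays from which the 10 genes are set apart, gave different counts. Of 53 listed, 34 were tested, and 7 were higher and 1 lower in HELLS KO, against 1.5% and 0.72% of all tested genes. The median over the 34, on the log2 scale, was 1.12. With the replicate block 12 were higher and 3 lower, against 2.03% and 1.49% of all tested genes. Without any 1 library, 3 to 5 were called in all. PCDHB2 rose from 178 to 767 counts over the libraries (log2 fold change 2.05, edgeR adjusted p = 0.010), PCDHB15 from 51 to 263 (2.32, adjusted p = 0.013) and PCDHGB4 from 6 to 102 (3.87, adjusted p = 0.014). PCDHAC2 fell from 447 to 12 (-5.13, adjusted p = 0.020). Genes within the alpha and gamma arrays share exons, so the split of their reads is uncertain. The difference between the clustered and the non-clustered genes was not tested as such.

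Markers of other cell types were read beside PCDH7. The 10 haematopoietic markers summed to between 1.48 and 2.62 CPM in HAP1 and between 1.26 and 2.20 CPM in HELLS KO. The 6 endothelial markers summed to 0.774 to 1.96 CPM and 0.687 to 1.52 CPM, the 6 neuronal and glial markers to 27.7 to 35.3 CPM and 31.3 to 43.4 CPM, and the 6 fibroblast markers, with DCN and LUM at 0 counts, to 39.5 to 82.9 CPM and 39.9 to 54.3 CPM. COL1A1 made up most of the fibroblast sum, with 3005 counts over the HAP1 and 2181 over the HELLS KO libraries (log2 fold change -0.58, edgeR adjusted p = 1.0), and THY1 (150 and 172 counts) and PDGFRB (56 and 55 counts) were also detected. The sums of these 4 lists overlapped between the lines. Within them, MAP2 (418 and 603 counts over the libraries, log2 fold change 0.53, edgeR adjusted p = 0.83) and GFAP (99 and 35 counts, -1.52, adjusted p = 0.32) did not overlap and did not pass the test. The 6 epithelial markers did not, with 103.1 to 147.8 CPM in HAP1 and 49.2 to 67.3 CPM in HELLS KO. In that list, 2 of the 5 tested genes were called lower, against 0.72% of all tested genes. EPCAM fell from 389 to 13 counts over the libraries (log2 fold change -4.88, edgeR adjusted p = 0.0015) and KRT8 from 3474 to 610 (-2.61, adjusted p = 0.0015). KRT8 made up most of the difference in the sum, with 70.0 CPM in HAP1 and 11.4 CPM in HELLS KO. KRT18, with 49.8 and 43.7 CPM, KRT19, with 0.420 and 0.638 CPM, and CLDN4, with 1.93 and 1.07 CPM, overlapped between the lines. The part of this in the difference of PCDH7 was not tested.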

How the data were processed

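Total RNA of HAP1 and HELLS KO cells was sequenced by the authors, with 3 libraries of each line. They made strand-specific libraries, aligned read pairs with STAR 2.7.3a to GRCh38, kept non-duplicated reads of sufficient mapping quality and counted them per gene with featureCounts 2.0.6. The authors deposited raw counts, and FPKM values of the 24956 genes with more than 10 counts in all. From these counts, and gene lengths derived from the FPKM values themselves, 100% of the deposited FPKM values were recomputed within 0.1%. This checked the scaling between libraries and not the lengths. Apart from the lengths, the FPKM values hold no further measurement. The annotation version was not given in the sources used here.

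Columns were assigned from the sample titles. Symbols and coordinates came from GENCODE release 44 (GRCh38), which matched 56321 of the 60483 gene IDs. No libraries of a line were copies. The chi-square per gene was 2.34 for HAP1 replicates 1 and 2, which were the most alike. It was 14.0 for HELLS KO replicates 1 and 2, and up to 55.9 for the pairs with replicate 3.

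Counts were tested with edgeR 4.0.16 in R 4.3.3 (filterByExpr, TMM, quasi-likelihood, Benjamini-Hochberg adjustment over 17925 genes, common biological coefficient of variation 0.242). CPM were calculated with TMM library sizes. The members and lists were chosen with earlier results of these data known. The rule named every member, HELLS, the neighbouring genes, partner and long cadherin genes past the threshold, and the extremes of either list with none. Overlapping genes with few counts are given as counts only. All other genes named with values (DCHS2, DAB1, TOX, the cell type markers and 4 of the 8 called clustered protocadherins) were singled out after their values were seen.

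Alternatives were DESeq2 1.42.0, other scalings and filters, a replicate block, a batch term, left-out libraries, and limma 3.58.1 on log2(FPKM + 1) and log2(FPKM + 0.1), a scale that understates the change of low genes. Replicate numbers were checked for pairing by correlating deviations from the line means, which gave 0.42, 0.20 and 0.78 for replicates 1, 2 and 3. With all above 0.1, and with the batch label of replicate 3 in both lines, they were taken as pairs. The crossed pairs of replicates 1 and 2 gave 0.59 (HAP1 replicate 2 with HELLS KO replicate 1) and 0.33, so that only replicate 3 stood apart. Since the line means include replicate 3, replicates 1 and 2 deviate from them together. The check could therefore not decide how replicates 1 and 2 pair, and the block rests on their numbers. Motifs were searched in RefSeq promoters of GRCh38.p14. A planned comparison of the member proteins was not run.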

Additional observations from a re-analysis of the deposited data

How the results depend on the processing

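The number of members higher in HELLS KO was 0 under all 16 alternatives, and the number of partner genes called was 0 under all of them. The number of members lower was 1, PCDH7, with DESeq2, the batch term, no filter on low counts, the replicate block, and replicates 1 and 2 only, and ranged from 0 to 1 with single libraries left out. The log2 fold change of PCDH7 was negative throughout, from -2.65 to -0.62, and with single libraries left out from -2.65 (without HELLS KO replicate 3, adjusted p = 0.019) to -1.76, with adjusted p from 0.019 to 0.29. Among all genes, the number higher was 424 with DESeq2, 29 with at least 10 counts in every library, 146 with limma on log2(FPKM + 1) and 415 without the filter, and 112 to 273 with libraries left out, the lowest without HELLS KO replicate 2. The number lower was 243 with DESeq2, 48 with at least 10 counts in every library, 285 with the batch term, 52 with limma on log2(FPKM + 1), 200 without the filter, 267 with the replicate block and 219 with replicates 1 and 2 only, and 40 to 176 with libraries left out, the lowest again without HELLS KO replicate 2. The number of other long cadherins called was 0 with at least 10 counts in every library, which removed PCDH11X from the test, 0 with limma on log2(FPKM + 1), and 0 to 1 with libraries left out. Clustered protocadherins called were 15 with DESeq2, 2 with at least 10 counts in every library, 16 with the batch term, 4 with limma on log2(FPKM + 0.1), 1 on log2(FPKM + 1), 15 with the replicate block, 5 with replicates 1 and 2 only, and 3 to 5 with libraries left out.

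The replicate block changed no other call of a named gene. Differences near 0 turned in sign: without HELLS KO replicate 3, PCDH1 was at 0.011, PCDH9 at -0.062 and PCDH19 at -0.070, without HAP1 replicate 3 PCDH17 was at 0.035 and CDH2 at 0.042, and without HELLS KO replicate 1 PCDH17 was at 0.103 and CDH2 at 0.047. With single libraries left out, PCDH1 ranged from -0.178 to 0.011, PCDH9 from -0.062 to 0.801, PCDH17 from -0.568 to 0.103, PCDH19 from -0.070 to 0.498, CDH2 from -0.261 to 0.047, PCDH18 from -0.442 to -0.0035 (the latter without HAP1 replicate 3), PCDH12 from 0.043 to 0.357 and PCDH8 from -0.946 to -0.342. LINC02506 missed the threshold in 7 settings, with adjusted p up to 0.16, among them without any 1 of HAP1 replicates 1 and 2 and HELLS KO replicates 1, 2 and 3. The cause of these shifts was not tested. PCDH8, PCDH10 and PCDH20 had at most 27 counts in any library.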
